A study of Mus musculus with 27 samples.

Results

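The 10 genes described here regulate the mass of skeletal muscle fibres: Foxo1, Foxo3, Fbxo32, Trim63, Fbxo30, Mstn, Fst, Acvr2b, Klf15 and Mef2c. They were taken from the expression table by symbol, and all 10 were found among its 36333 genes. The study removed Mlx, a dimerisation partner of transcription factors that respond to glucose, from the whole body of mice and followed them into old age. Samples were bulk mRNA libraries of skeletal muscle, liver and omental adipose tissue from male MlxKO mice. Each tissue had 4 samples from mice of 5 months and 5 from mice of 20 months, which makes 27 in all. Every mouse was Mlx Flox/Flox and carried a tamoxifen-activated Cre (cre/ERT2) in the ubiquitously expressed Gt(ROSA)26Sor locus of a B6.129 strain, and each was given 5 daily injections of tamoxifen at 75 mg/kg from weaning. Both ages therefore shared the deletion and the tamoxifen, and wild type mice were not analysed here. The comparisons are thus of age and of tissue within MlxKO mice. The feeding state and the time of day at sampling are not given in the sources used here. Whether they differed between the ages is not known. By the study's own assays, which list mice of the same or matching numbers, more Mlx transcript was left in skeletal muscle than in liver or adipose tissue. The values of Mlx itself did not check the labels, since the gene total also holds exons outside the deleted part. Its mean in muscle rested on 4 young mice at 9.41 ± 1.89 and on 5 old mice at 10.3 ± 0.80 (SD), and the difference did not pass the test (limma adjusted p = 0.503). Samples are called by the codes of their labels, in which S, L and F stand before the mouse number in muscle, liver and fat samples. The codes of the samples labelled 20 months begin with X18. The study's supplement lists mice whose numbers end in the same digits at an age that matches the X18 of the codes and not the age label. The age of the labels is used throughout, and the older age may thus be lower by that difference.

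Muscle mass reflects the balance of protein synthesis and breakdown. FoxO transcription factors are held in the cytoplasm by Akt signalling downstream of insulin and IGF1, and when they enter the nucleus they induce ubiquitin ligases and autophagy genes. Myostatin, a secreted TGF-β family protein made by muscle fibres, signals through activin type II receptors to Smad proteins to restrain growth, and follistatin binds and blocks it. Glucocorticoids induce Klf15 and act on the same ligase genes, while MEF2 factors drive the genes of the differentiated fibre.

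Promoter sequence was found for 8 of the 10 genes in the RefSeq table, as 250 bases before to 50 bases after each start used there. Fbxo32 and Fst were the genes without an entry. Both strands were searched for the FoxO core (GTAAACA), the glucocorticoid receptor hexamer (AGAACA), the E box (CACGTG, the core site of the Myc and Mlx families), the glucocorticoid palindrome, the carbohydrate response element and the MEF2 site. Trim63 is shown because a glucocorticoid hexamer was directly followed there by a FoxO core. Klf15 is shown because it held 3 E boxes. Both are from the plus strand of GRCm38.p6, 5′ to 3′, at chr4:134314870-134315169 for Trim63 and chr6:90462326-90462625 for Klf15, with the matches in capitals.
Trim63: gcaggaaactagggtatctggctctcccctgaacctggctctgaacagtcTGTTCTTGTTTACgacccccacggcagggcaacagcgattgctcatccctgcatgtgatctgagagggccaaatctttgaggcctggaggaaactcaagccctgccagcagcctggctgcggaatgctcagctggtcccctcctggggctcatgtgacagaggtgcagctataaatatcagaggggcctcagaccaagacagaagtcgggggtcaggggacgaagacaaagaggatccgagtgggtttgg
Klf15: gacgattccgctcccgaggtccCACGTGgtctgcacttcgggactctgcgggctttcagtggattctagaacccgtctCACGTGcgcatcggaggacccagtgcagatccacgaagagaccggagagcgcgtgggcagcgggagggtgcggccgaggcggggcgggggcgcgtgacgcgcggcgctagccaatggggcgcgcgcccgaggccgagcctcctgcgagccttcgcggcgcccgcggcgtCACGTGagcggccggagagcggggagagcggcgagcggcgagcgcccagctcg
In Trim63 the hexamer covered positions -200 to -195 and the FoxO core positions -194 to -188 from the gene start. In Klf15 the E boxes began at -228, -172 and -3 from the start used for its window. That start lies inside the gene, whose span begins upstream at chr6:90461043. The starts used for Acvr2b, Fbxo30 and Mef2c also lie inside their genes, that of promoter 1 of Mef2c only slightly. Of 32851 promoters in the table, 3.65% held a FoxO core, 19% a glucocorticoid hexamer and 7.15% an E box. The carbohydrate response element was found in 0.0274% of promoters, the MEF2 site in 3.19% and the palindrome in 0.00913%, and none of the 3 was found in the windows of these 8 genes. Mef2c held a hexamer in its promoters 1 and 3, and the windows of Foxo1, Foxo3, Mstn, Acvr2b and Fbxo30 held no match to any of the 6 motifs. These matches are descriptions of letters and not of bound sites.

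The values are the deposited ones, that is, CPM divided by a factor for each sample. The factors were 0.806 to 0.940 in muscle, 0.717 to 1.05 in liver and 1.55 to 1.79 in adipose tissue. Levels compared between tissues therefore rest on this scaling. Samples held between 14384695 and 25673919 reads on genes. The muscle samples bore the identity of their label: the 16 myofibre markers summed to 195443 to 229571 at 5 months and to 183439 to 218654 at 20 months, 1 of the 16 passed the test between ages (Mb, higher at 20 months), and none was at 0. Several marker lists did move with age in muscle. Of 11 genes of the acute stress response, 9 fell with age, and their summed level was 2721 to 17924 at 5 months and 618 to 1766 at 20 months, highest in X5S5001. Of 6 fibroblast markers 5 fell (summed level 1018 to 1446 against 525 to 898), of 8 macrophage markers 4 fell (151 to 239 against 85.1 to 165.9) and of 5 red cell markers 3 fell. The adipocyte list moved little: 2 of its 10 markers fell, Plin4 and Cfd, beside 19.3% of all genes that passed in muscle. Its median log2 change was -0.12, though its summed level was 1602 to 1927 against 878 to 1299. Hepatocyte markers stood at 410 in the muscle sample X5S5238 and at 78.0 or less in the others. Fewer cells of a type and less RNA per cell cannot be told apart in these samples, and the part of these markers in the results was not tested.

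In skeletal muscle, 7 of the 10 genes fell between 5 and 20 months, 1 rose and 2 did not pass the test. Trim63 and Foxo1 fell most, to 30.1% and 28.7% of their means at 5 months, and Mef2c rose to 1.85-fold. Fbxo32, Foxo3, Mstn, Klf15 and Fbxo30 fell as well, whereas Fst and Acvr2b were the genes that were not called. Each gene was tested with limma on log2(value + 1) over the 9 muscles, with p-values adjusted over 12720 genes. Of those genes, 19.3% passed the threshold of 0.05, 10.1% lower and 9.13% higher at 20 months. The median log2 change of the 10 genes was -0.72, beside 0.02 over all genes tested. Rescaling without the 20 most abundant genes moved the split over all genes from 1161 higher and 1290 lower to 1846 and 977, and 6 of the 10 genes were then called.

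**Figure D1:**
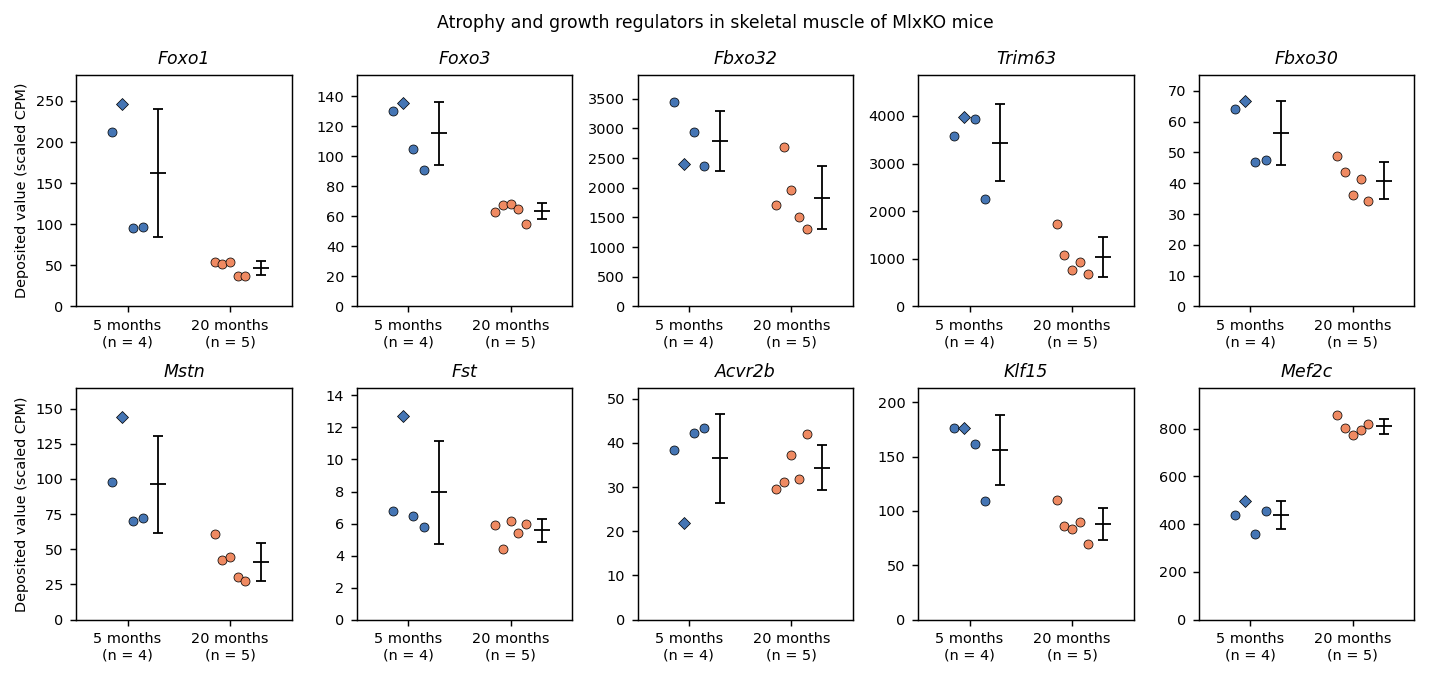
Deposited value of each gene (scaled CPM, axes from 0) in skeletal muscle of MlxKO mice at 5 months (blue, n = 4) and 20 months (orange, n = 5), 1 point per mouse, with the mean and SD at the right of each group and X5S5001 drawn as a diamond. The ages did not overlap for Foxo1, Foxo3, Trim63, Mstn and Mef2c.

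Foxo1 encodes the FoxO factor that is induced in fasted muscle. Its values at 5 months were 212.3 in X5S4299, 246.0 in X5S5001, 95.5 in X5S5238 and 96.6 in X5S5239. At 20 months they were 54.3, 51.1, 54.3, 37.3 and 36.4 in X18S56 to X18S60, and the values of the other genes are given in the same order of mice. The mice at 5 months fell into a high pair and a low pair, and even the low pair stood above every mouse of 20 months. The mean decreased from 162.6 ± 78.0 to 46.7 ± 9.06 (SD, n = 4 and 5), a log2 change of -1.67 ± 0.28 (SE, limma adjusted p = 0.00394).

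Foxo3 encodes the FoxO factor that drives both ligase and autophagy genes in atrophying fibres. It was measured at 129.9, 135.2, 105.0 and 90.5 in the mice of 5 months and at 63.0, 67.7, 68.2, 64.7 and 54.9 in those of 20 months. The groups did not overlap, and the older mice were closely grouped. Foxo3 fell by 0.83 ± 0.12 on the log2 scale (SE, limma adjusted p = 0.00283). In an exact two-sided permutation test over all splits of the 9 mice, Foxo1, Foxo3 and Mef2c gave p = 0.00794, the smallest this design allows.

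Of the 3 ubiquitin ligase genes, 2 passed with a margin that depended on single mice. Trim63 encodes MuRF1, which marks thick filament proteins of the sarcomere for breakdown. It stood at 3585, 3981, 3928 and 2252 at 5 months and at 1728, 1084, 762, 930 and 670 at 20 months. The lowest young mouse, X5S5239, was above the highest old mouse, X18S56. The fall came to a log2 change of -1.78 ± 0.26 (SE, limma adjusted p = 0.00245; exact permutation p = 0.0159).

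Fbxo32 encodes atrogin-1, the F-box protein of a ligase that targets MyoD and the initiation factor eIF3f. Its values were 3446, 2404, 2944 and 2369 at 5 months and 1714, 2686, 1961, 1500 and 1309 at 20 months. The old mouse X18S57 lay above 2 of the 4 young mice, so the groups overlapped. The fall, of log2 -0.63 ± 0.20 (SE), passed the test narrowly (limma adjusted p = 0.0426). It passed in 3 of the 9 fits that left out a mouse, those without X5S5001, X5S5239 or X18S57, with an adjusted p up to 0.106 in the others, and in 7 of 12 other settings.

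Fbxo30 encodes MUSA1, an F-box protein induced when BMP signalling is lost in muscle. It was at 64.0, 66.8, 47.0 and 47.5 at 5 months and at 48.9, 43.7, 36.2, 41.3 and 34.3 at 20 months. The old mouse X18S56 exceeded both of the lower young mice. The log2 change of -0.45 ± 0.14 (SE, limma adjusted p = 0.0454) passed in 3 of 9 fits with a mouse left out, those without X5S5238, X5S5239 or X18S56, with an adjusted p up to 0.113 in the others, and in 8 of 12 other settings.

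The 3 genes of the myostatin pathway differed in their age changes. Mstn, which encodes myostatin, was at 98.0, 143.9, 69.8 and 72.5 at 5 months and at 60.7, 42.4, 44.2, 30.0 and 27.7 at 20 months. No old mouse reached the lowest young mouse. The mean fell from 96.0 ± 34.3 to 41.0 ± 13.2 (SD, n = 4 and 5), a log2 change of -1.20 ± 0.25 (SE, limma adjusted p = 0.00990).

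Fst, the gene of follistatin, was the least abundant per kilobase of exon, with 66 to 158 reads per muscle. It stood at 6.76, 12.7, 6.50 and 5.78 at 5 months and at 5.93, 4.39, 6.15, 5.44 and 5.99 at 20 months. Apart from X5S5001 the ages lay close together. Its log2 change was -0.39 with a 95% interval of -0.82 to 0.04 (limma adjusted p = 0.169). Acvr2b, the type II receptor for myostatin and activins, was at 38.3, 21.8, 42.3 and 43.4 at 5 months and at 29.7, 31.2, 37.3, 31.8 and 42.0 at 20 months. The young range enclosed every old mouse, and its lowest value came from X5S5001, which was the highest young mouse for 8 of the 10 genes. A log2 change of -0.05 was estimated, with a 95% interval of -0.46 to 0.36 (limma adjusted p = 0.878).

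Klf15 encodes a glucocorticoid-induced factor that promotes amino acid breakdown in muscle. Its values were 176.3, 176.4, 161.8 and 108.8 at 5 months and 110.3, 85.8, 83.0, 90.3 and 69.5 at 20 months. The ages overlapped by a small margin, between X5S5239 and X18S56. The log2 change of -0.81 ± 0.16 (SE, limma adjusted p = 0.00822) held in each of the 9 fits that left out a mouse, but not in the fit of all 27 samples (adjusted p = 0.0681).

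Mef2c, which encodes a MEF2 factor of differentiated fibres, moved the other way. It was at 439.2, 496.9, 361.0 and 457.2 at 5 months and at 858.1, 803.9, 772.3, 794.1 and 820.3 at 20 months. The old mice agreed closely and all lay far above the young. The mean rose from 438.6 ± 57.1 to 809.7 ± 32.1 (SD, n = 4 and 5), and the log2 change of 0.89 ± 0.10 (SE, limma adjusted p = 0.000983) passed in all 9 fits with a mouse left out.

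In total, the ages did not overlap for 5 of the 10 genes, beside 17.3% of all genes tested. Leaving out X5S5001, which had the highest stress response, left 7 of the 10 called: Fbxo30 no longer passed (limma adjusted p = 0.111). Values were also divided by the merged length of all annotated exons of each gene. That length can exceed the length of a single transcript, so a value per kilobase may be too low. It was longest for Mef2c, at 15715 bases. At 5 months the values were 1209 per kilobase for Trim63, 400.0 for Fbxo32, 55.8 for Klf15, 35.5 for Mstn, 27.9 for Mef2c, 18.8 for Foxo1, 15.2 for Foxo3, 10.8 for Fbxo30, 9.28 for Acvr2b and 1.73 for Fst. The ranges over mice of neighbours in this order overlapped from Klf15 to Acvr2b, and Trim63, Fbxo32 and Fst stood apart from their neighbours. At 20 months Trim63 (364.0 per kilobase) and Fbxo32 (262.9) overlapped. Mef2c, at 51.5 per kilobase, then lay above Klf15, at 31.4, without overlap, and Foxo1, at 5.39, lay below Fbxo30, at 7.87, without overlap. Annotated genes overlap Fbxo32, Foxo1, Fst and Acvr2b on the genome, and whether the counting used strand is not given in the sources used here.

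The wider pathways were described by 10 lists of related genes, 156 in all, of which 144 were tested in muscle. Of these, 9 rose and 40 fell with age. The share that passed, 34%, stood beside 19.3% of all genes, and the lists were chosen with earlier results known. Falls also outnumbered rises in the other tissues. In liver 8 of 130 rose and 29 fell (28.5%, beside 19.8% of all genes). In adipose tissue 5 of 138 rose and 28 fell (23.9%, beside 19.1%). The counts and values of single lists that follow are of muscle unless another tissue is named. In the FoxO target list 14 of 25 fell and 1 rose, with a median log2 change of -0.53.

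Sesn1, a sestrin that restrains mTORC1, was at 159.2 to 322.9 at 5 months and at 53.7 to 97.9 at 20 months (log2 change -1.73 ± 0.20 SE, limma adjusted p = 0.000983). Cdkn1a, the cell cycle inhibitor p21, fell from 348.2 to 72.0, a log2 change of -2.32 ± 0.31 (SE), and Gadd45a, a growth arrest gene also induced by denervation, fell by 1.04 on the log2 scale. Sesn3 was the FoxO target that rose. Several of the targets that fell, Ddit4, Atf4 and Cdkn1a among them, are known to respond also to glucocorticoids or to stress.

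Of 18 other ubiquitin ligases tested, 3 fell and 1 rose, with a median log2 change of 0.05. Cblb, which targets the insulin receptor substrate, fell by 1.03 and Ubr2, an N-end rule ligase, by 0.45 on the log2 scale. Trim55, the MuRF2 relative of Trim63, rose from 35.9 ± 5.78 to 50.5 ± 6.06 (SD, n = 4 and 5; limma adjusted p = 0.0214). Of 9 FoxO relatives and regulators, 1 rose and 1 fell: Prkaa2, the AMPK catalytic subunit that predominates in muscle, rose by 0.45, and Prkaa1, the other catalytic subunit, fell by 0.37 on the log2 scale.

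Among myostatin and activin ligands and their processing enzymes, 3 of 9 fell and none rose. These were Furin and Bmp1, proteases that activate the ligands, which fell by 0.48 and 0.53 on the log2 scale, and Inhbb, an activin subunit, which fell from 10.5 ± 1.86 to 5.53 ± 1.55 (SD, n = 4 and 5). Of 7 extracellular inhibitors 2 rose and 1 fell. Wfikkn2, a secreted binder of myostatin, rose from 16.9 to 25.6 (log2 change 0.57 ± 0.11 SE), and the BMP antagonist Nog from 2.67 to 4.39. Decorin (Dcn), which is also 1 of the fibroblast markers that fell, dropped by 0.68 on the log2 scale.

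Of 13 receptors and Smads, 4 fell and 1 rose. Tgfbr3 fell from 102.7 ± 32.2 to 44.4 ± 6.21 and Acvr1b, a type I receptor used by myostatin, from 116.7 ± 29.4 to 65.0 ± 7.36 (SD, n = 4 and 5). Smad6, an inhibitory Smad, rose from 7.97 to 14.1. In the BMP list 2 of 16 rose and 2 fell. The receptor gene Bmpr1a rose from 71.2 ± 7.37 to 121.4 ± 7.05 (SD, n = 4 and 5; limma adjusted p = 0.00120), Bmp6 fell by 0.50 on the log2 scale, and Gdf5, a ligand induced in denervated muscle, rose from 0.486 to 2.23, a low level at both ages.

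In the list of IGF1, Akt and mTOR genes, 4 of 17 fell and none rose. Igf1 averaged 13.5 ± 6.96 at 5 months and 5.77 ± 2.06 at 20 months (SD, n = 4 and 5; limma adjusted p = 0.0338), Igf1r fell by 0.61 and Tsc1, which restrains mTORC1, by 0.38 on the log2 scale. In the MEF2 list 4 of 20 fell and 1 rose. The kinase subunit gene Camk2g rose by 0.50, the calcineurin inhibitor Rcan1 fell by 1.92 and the myogenic factor Myf6 fell by 0.86 on the log2 scale. Rcan1 was at 1845 in X5S5001, against a group mean of 736.7.

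Of 10 genes of the glucocorticoid axis, 4 fell and none rose. Fkbp5, a chaperone induced by the glucocorticoid receptor, was at 446.4, 411.4, 309.8 and 215.5 at 5 months and at 133.7, 195.6, 174.5, 87.0 and 51.7 at 20 months. No old mouse reached the young range (log2 change -1.52 ± 0.35 SE, limma adjusted p = 0.0148). Tsc22d3 fell by 1.12 and Per1, which is also a clock gene, by 1.52 on the log2 scale. Of the same 10 genes, 2 fell and 1 rose in liver, and 5 fell and 1 rose in adipose tissue. Fkbp5 fell there too, by 1.61 in liver and 1.98 in adipose tissue on the log2 scale (limma adjusted p = 0.0218 and 0.00948). Per1 passed in adipose tissue but not in liver, and Tsc22d3 in neither. The part of the glucocorticoid axis, of feeding state or of time of day in the falls of Klf15, Foxo1 and Trim63 was not tested. Of 9 denervation genes tested, 4 fell (Gadd45a, Musk, Runx1 and Myog) and Dach2 rose, and the summed level was 212.3 to 332.4 at 5 months against 118.0 to 179.2 at 20 months.

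**Figure D2:**
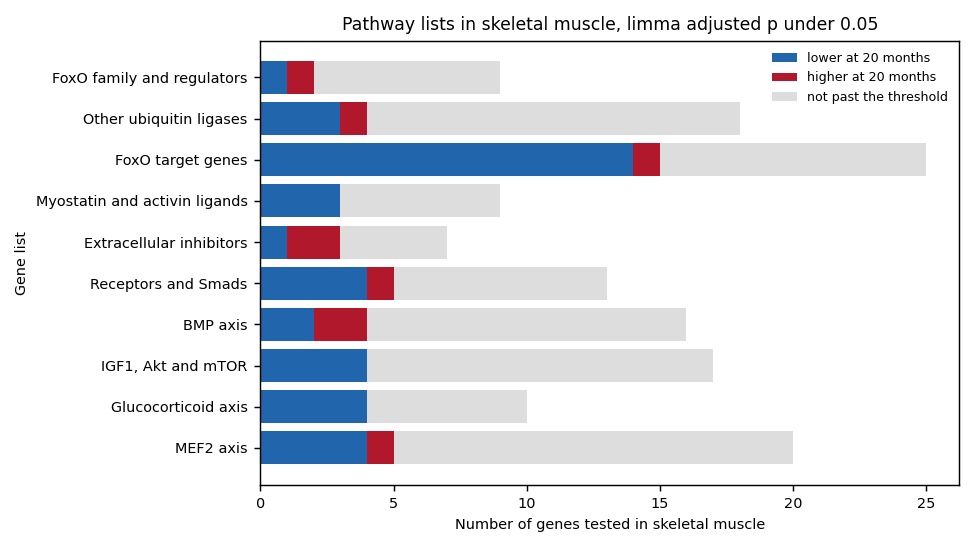
Number of genes tested in skeletal muscle in each of 10 pathway lists, split into genes lower at 20 months (blue), higher (red) or not past the limma threshold (grey). The FoxO target list has the longest blue bar, with 14 of 25 genes, and in the other lists 4 genes or fewer fell.

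For each gene called in muscle except Foxo1, the 2 genes most like it over the 9 muscles were named by Pearson correlation of log2(value + 1). The points are the same 9 libraries, most of the spread is between ages, and no test was made. Mstn was most like Nfil3, a repressor also tied to the clock (r = 0.994, rho = 0.967), and Zswim6 (r = 0.988). Foxo3 was most like the nuclear receptor gene Ppard (r = 0.990) and Sidt2 (r = 0.988), and Trim63 like Zfp869 (r = 0.988) and Clip1 (r = 0.979). Klf15 was most like the mitophagy receptor gene Bnip3 (r = 0.982) and Zfp869 (r = 0.976), Fbxo30 like Serinc3 (r = 0.984) and Zc3h11a (r = 0.977), and Fbxo32 like Taf5l (r = 0.962) and Setd1a (r = 0.957). Mef2c was most like Ctnna3 (r = 0.984, rho = 0.850) and Bmpr1a (r = 0.982, rho = 0.783).

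The tissues differed in most of these genes, as they did in most genes of the table. At 5 months the muscle level differed from liver for 9 of the 10 genes, beside 72.9% of the 15572 genes tested, and from adipose tissue for 9, beside 72.8% (limma over all 27 samples). At 20 months it differed from liver for 8 of 10, beside 77.2%, and from adipose tissue for 8, beside 76.0%.

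Trim63 and Mstn had 0 reads in all 9 livers. Against the largest value that 3 reads took in a liver of each age, the muscle mean of Trim63 was at least 14324-fold higher at 5 months and at least 6072-fold higher at 20 months, and that of Mstn at least 400.3-fold and at least 240.7-fold higher. Fbxo32 was detected in every liver, at 5.51 to 10.6, which left muscle 344.3-fold higher at 5 months and 275.9-fold at 20 months. Mef2c was 96.3-fold higher in muscle than in liver at 5 months and 165.5-fold at 20 months.

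**Figure D3:**
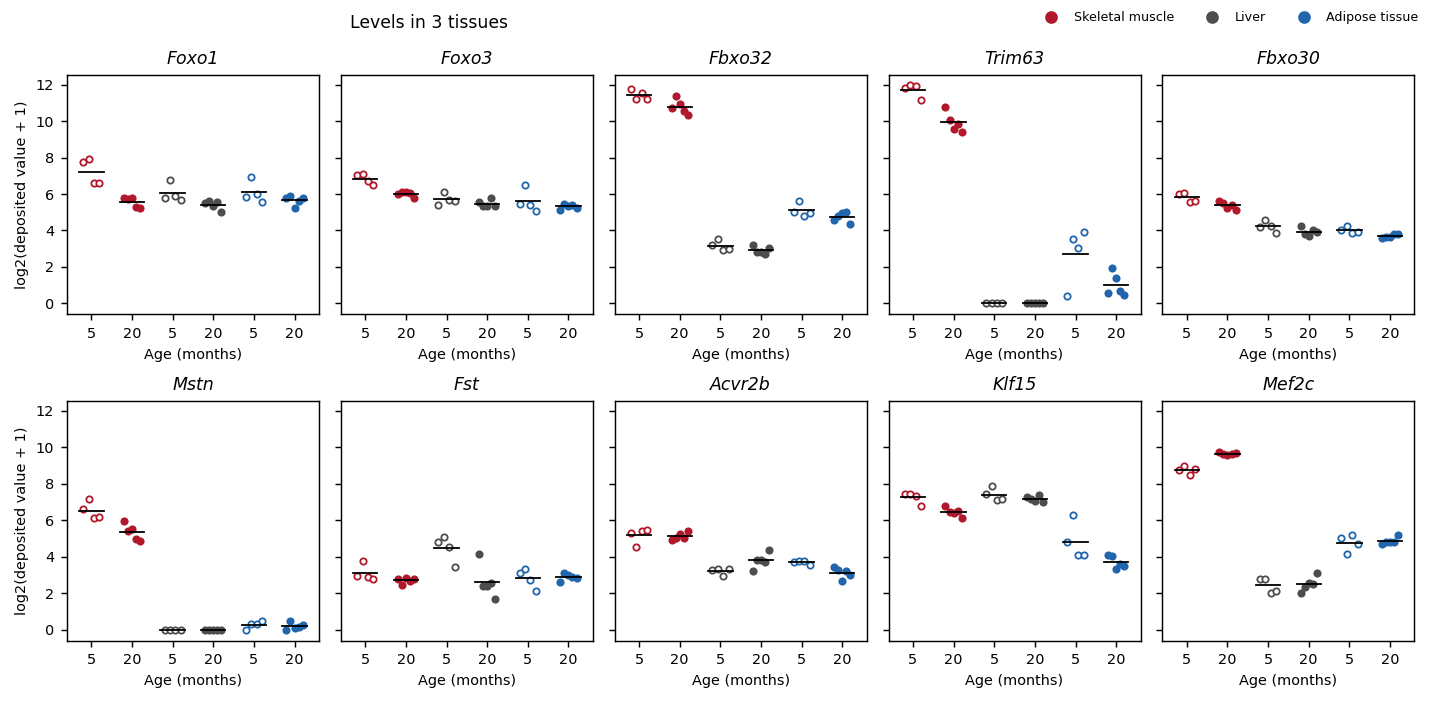
log2(deposited value + 1) of the 10 genes in skeletal muscle (red), liver (grey) and adipose tissue (blue) at 5 months (open points) and 20 months (filled points), 1 point per sample with a line at the group mean. Trim63 and Mstn lie at 0 in every liver, whereas Klf15 in liver reaches or exceeds its level in muscle.

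The mean of Klf15 in liver was above that in muscle at both ages, and so was that of Fst. Klf15 was at 140.2 to 232.7 in liver at 5 months, a log2 difference of muscle minus liver of -0.14 (95% interval -0.78 to 0.50). At 20 months its liver values were 129.2 to 169.1, and muscle was lower by log2 0.74 ± 0.28 (SE, limma adjusted p = 0.0188), a call lost under quantile normalization (adjusted p = 0.0830). Fst was lower in muscle than in liver at 5 months, with a log2 difference of -1.36 ± 0.37 (SE, limma adjusted p = 0.00198). At 20 months the difference was 0.07 on the log2 scale (95% interval -0.61 to 0.75), with means of 5.58 in muscle and 6.50 in liver. The higher liver mean rested on X18L16 at 16.8. The other old livers were at 2.26 to 4.88, and the old muscles at 4.39 to 6.15.

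Foxo1 was higher in muscle at 5 months than in liver, by log2 1.19 ± 0.29, and than in adipose tissue, by log2 1.14 ± 0.29 (SE, limma adjusted p = 0.000822 and 0.00129). At 20 months the differences were 0.14 (95% interval -0.41 to 0.68) and -0.12 (95% interval -0.66 to 0.42). Foxo3, Fbxo30 and Acvr2b were higher in muscle than in either tissue at both ages. The mean ratios were 1.47 to 2.25 for Foxo3, 2.86 to 3.71 for Fbxo30 and 2.58 to 4.40 for Acvr2b. Adipose samples had larger factors than muscle samples, so ratios to adipose tissue would be lower in CPM before the division. The small differences of Foxo1 and Foxo3 from adipose tissue depend on that scaling.

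In liver, 1 of the 8 genes tested passed the test between ages, beside 19.8% of all 12654 genes tested. The median log2 change of the 8 was -0.24, beside 0.001 over all genes tested. Fst was at 27.05, 32.9, 21.9 and 9.76 at 5 months and at 16.8, 4.31, 4.19, 4.88 and 2.26 at 20 months. X18L16 stood far above the other old mice and above the lowest young mouse. Fst had a log2 change of -1.82 ± 0.46 (SE, limma adjusted p = 0.0223), and it lost the call when X5L4299, X5L5001 or X18L18 was left out (adjusted p = 0.0591, 0.0698 and 0.0585).

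Foxo1 in liver was at 50.5 to 109.3 at 5 months and at 31.5 to 48.4 at 20 months. The ages did not overlap, yet the log2 change of -0.62 ± 0.22 (SE) did not pass over all genes (limma adjusted p = 0.0632; exact permutation p = 0.00794); it was called by edgeR and DESeq2. Acvr2b had a log2 change of 0.59 ± 0.20 (SE, limma adjusted p = 0.0631). The other 5 genes had adjusted p of 0.20 or more. Of 9 hepatocyte markers tested in liver, 1 fell (Cps1), and the median log2 change was -0.43. The list summed to 125030 to 183648 at 5 months and to 57326 to 116288 at 20 months, lowest in X18L74. The part of this in the liver values was not tested. Markers of other cells moved with age in liver: 4 of 6 fibroblast, 3 of 8 macrophage, 4 of 4 B cell and 4 of 5 red cell markers tested rose, while the myofibre markers summed to 11.8 or less, with 8 or 9 of the 16 at 0.

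In adipose tissue, 1 of the 9 genes tested passed the test between ages, beside 19.1% of all 14005 genes tested. The median log2 change of the 9 was -0.35, beside 0.01 over all genes tested. Acvr2b was at 12.3, 12.4, 12.8 and 10.8 at 5 months and at 9.93, 8.56, 5.41, 8.32 and 6.87 at 20 months, without overlap. It fell by 0.59 ± 0.16 on the log2 scale (SE, limma adjusted p = 0.0349). Of the 9 fits with a mouse left out, the call held in the 2 without X18F36 or X5F5239, and the adjusted p reached 0.0903 in the others. Fbxo30 fell by 0.32 ± 0.11 on the log2 scale (SE) and its ages did not overlap. It did not pass over all genes (limma adjusted p = 0.0688; exact permutation p = 0.00794). Klf15 had a log2 change of -1.11 ± 0.42 (SE, limma adjusted p = 0.0826), with overlap.

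Trim63 in adipose tissue was at 0.319, 10.8, 7.33 and 13.9 at 5 months and at 0.501, 2.80, 1.58, 0.586 and 0.388 at 20 months. The low young sample was X5F4299, and the old samples lay at or below 2.80. Its log2 change was -1.73 ± 0.66 (SE, limma adjusted p = 0.0841). The 16 myofibre markers in the same samples summed to 359.3, 522.4, 1017 and 1133 at 5 months and to 182.0, 703.3, 198.5, 146.3 and 192.2 at 20 months, and none was at 0 over a whole group. X5F4299 was the lowest young sample and X18F37 the highest old sample on both measures. Of the other lists in adipose tissue, 4 of 4 B cell and 2 of 8 macrophage markers tested rose, and 3 of 5 endothelial, 3 of 5 smooth muscle, 3 of 5 mesothelial and 2 of 5 red cell markers fell. Over all genes tested in adipose tissue, 19.1% passed. The part of these cells and of muscle RNA in the adipose values was not tested. Mstn, with values of 0.389 or less, did not pass the filter there, and Mef2c and Fst had log2 changes of 0.09 and 0.06.

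**Figure D4:**
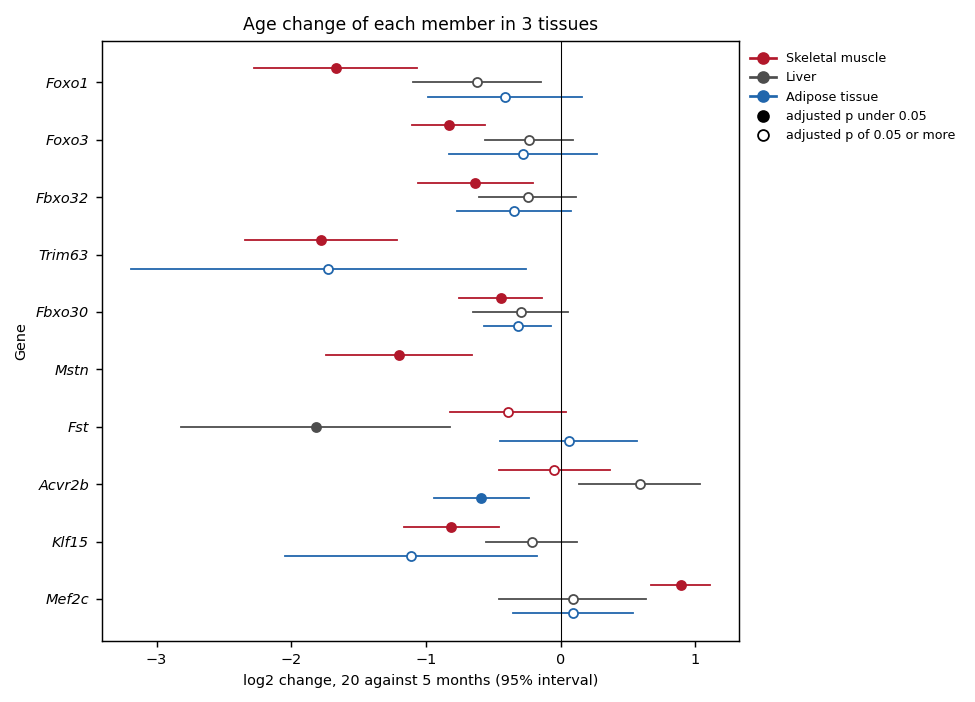
log2 change from 5 to 20 months with its 95% interval for each gene in skeletal muscle (red), liver (grey) and adipose tissue (blue), filled where the limma adjusted p was under 0.05. Of the filled points 8 belong to muscle, 1 to liver (Fst) and 1 to adipose tissue (Acvr2b), and genes that did not pass the filter in a tissue have no point.

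Whether an age change differed between tissues was tested as an interaction over all 27 samples. The test compares age changes only for genes that passed the filter within both tissues, which left out Mstn and Trim63 against liver, where both had 0 reads, and Mstn against adipose tissue. Between muscle and liver it passed for 1 of 8 genes, beside 19.3% of the 11105 genes measured in both. The change of Fst was higher in muscle than in liver by log2 1.43 ± 0.50 (SE, limma adjusted p = 0.0477). That call was narrow and held in 2 of 15 alternatives, with mouse as a block and without X5S5001, with an adjusted p from 0.0327 to 0.142. With mouse as a block Foxo1 and Mef2c passed in addition (adjusted p = 0.0446 and 0.0449), whereas edgeR did not call Fst (adjusted p = 0.142).

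Between muscle and adipose tissue the interaction passed for 1 of 9 genes, beside 14% of the 12020 genes measured in both. This was Foxo1, by log2 -1.26 ± 0.40 (SE, limma adjusted p = 0.0337), and the call held in 10 of 15 alternatives, with an adjusted p from 0.0156 to 0.0878. It was lost under quantile normalization and without X5S4299, X5S5001, X18S59 or X18S60. For Trim63 the difference was -0.05 (95% interval -1.34 to 1.24), and for Klf15 0.30 (95% interval -0.56 to 1.16). Without X5S5001, X5L5001 and X5F5001, the 3 tissues of 1 mouse, Foxo1, Foxo3 and Acvr2b passed against liver and Foxo1, Foxo3 and Mef2c against adipose tissue.

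The 4 mice of 5 months gave all 3 tissues, so each could be followed across them. The mouse of X5S5001, X5L5001 and X5F5001 was the highest of the 4 for 8 of 10 genes in muscle, for 6 of the 8 detected in liver and for 6 of 10 in adipose tissue. For Foxo1, Foxo3, Fbxo30, Fst and Klf15 it was the highest in all 3. For Klf15 in muscle the lead was slight, at 176.39 against 176.34 in X5S4299. The share of all genes for which this mouse was the highest was not counted. The counts therefore do not show whether its high values were particular to these genes. Klf15 in its adipose tissue was at 78.0, against 27.5 or less in the other mice. Foxo1 in its adipose tissue was at 121.1, against 62.3 or less.

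Of the 10 genes of the glucocorticoid axis, the same mouse was the highest of the 4 for 2 in muscle, 5 in liver and 6 in adipose tissue, and the lowest for 2, 1 and 3. Tsc22d3 and Per1 were highest in it in all 3 tissues, whereas Gpt, an alanine aminotransferase, was lowest in it in all 3 (2.36 in adipose tissue, against 7.85 to 26.4). Its Fkbp5 value was 345.7 in liver, against 129.7 or less in the other young mice, and 183.7 in adipose tissue, against 107.9 to 150.6. In muscle X5S4299 was higher for Fkbp5, whereas X5S5001 led for Tsc22d3 (633.1 against 287.0 to 419.0) and Per1 (237.8 against 61.1 to 117.5). This is a description of 1 animal, and its part in the age changes was not tested beyond the fits without it.

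**Figure D5:**
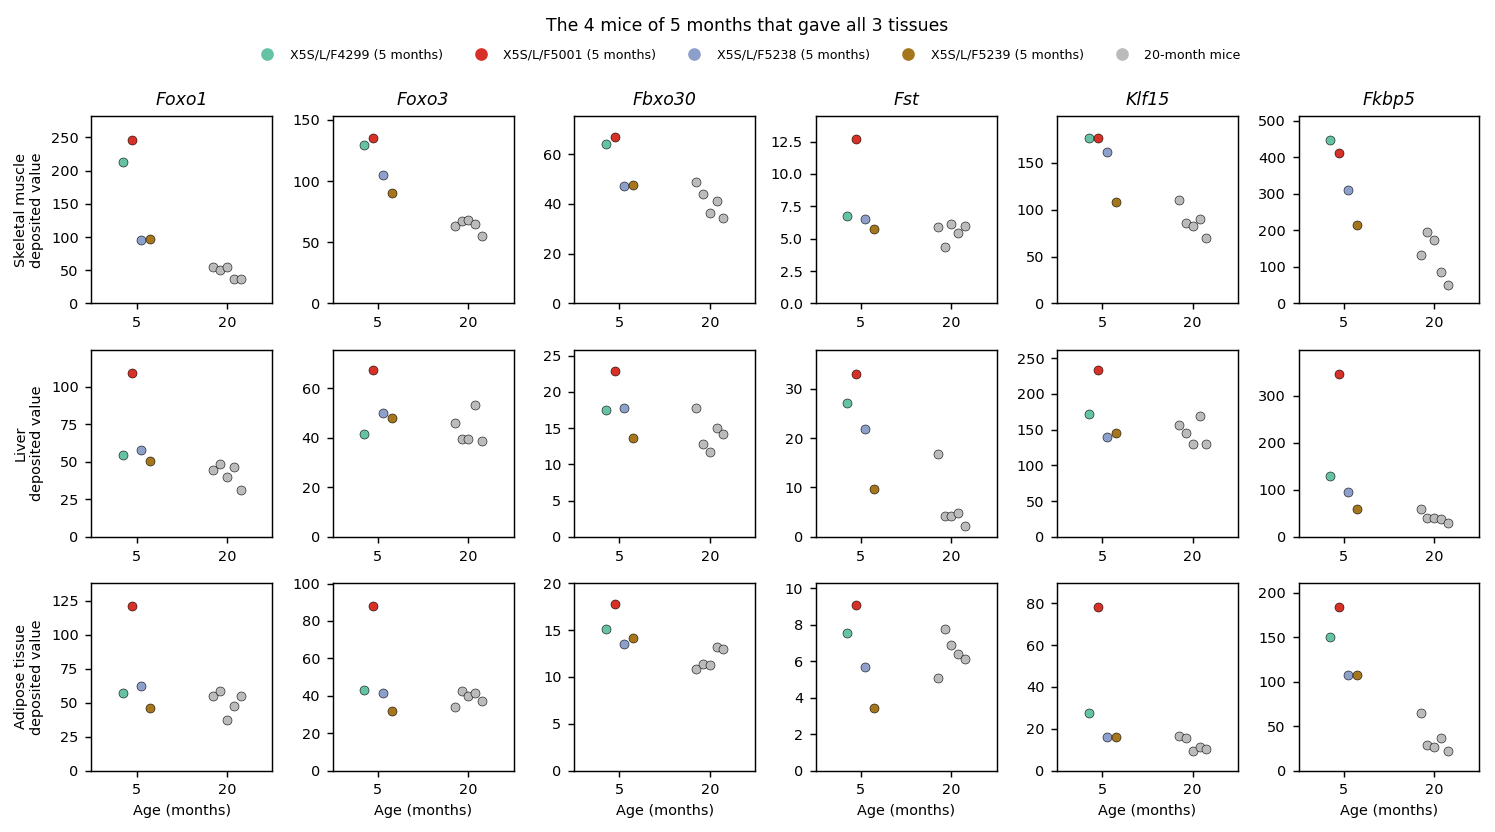
Deposited value of 5 of the genes and of Fkbp5, a glucocorticoid-responsive gene, in skeletal muscle, liver and adipose tissue (rows; axes from 0), with the 4 mice of 5 months in colour and the mice of 20 months in grey. The mouse of X5S5001, X5L5001 and X5F5001 (red) is the highest young mouse in every panel except Fkbp5 in muscle.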

How the data were processed

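Groups came from the tissue and age labels. The authors mapped and counted reads in CLC Genomics Workbench and deposited 1 signal value per gene and sample, namely CPM divided by a factor per sample. Every value was a whole multiple of the value of 1 read (tolerance 0.01 reads), and reads recovered so served edgeR 4.0.16 and DESeq2 1.42.0 as alternatives. The builds in the submitters' processing notes are GRCm38.p6 and mm10. Coordinates are of GRCm38.p6.

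Tests used limma 3.58.1 in R 4.3.3 with a variance trend on log2(value + 1), on genes that reached 1 in 4 or more samples, adjusted by Benjamini-Hochberg with a threshold of 0.05. Ages were compared within each tissue (9 samples). Interactions and tissue levels were fitted over all 27 samples. Interactions are read only for genes past the filter within both tissues, a restriction made after seeing the data. Alternatives changed the pseudocount, filter, scaling, variance model, tool or samples.

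The members and lists were chosen with earlier results of these data known. All 10 members were named, together with up to 3 called genes per list and the 2 genes most like each called member, which for Foxo1 are not reported here. Replicates were separate mice by their labels. No pair of 48 within groups held identical values (chi-square per degree of freedom 9.81 to 217.5). The mice of 5 months gave all 3 tissues, as the numbers in the labels show. Deviations from the group means correlated at a mean of 0.136 within and -0.045 between mice. Centring on the group means ties the second value to the first, so their contrast is no separate evidence of the pairing. Counting error alone would allow up to 0.242 where a muscle gene had 0 reads. Fits were tested on simulated data.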

Additional observations from a re-analysis of the deposited data

Results flagged for a closer look

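In groups of 4 or 5 samples, 5 of 56 had an end value far from the rest by Dixon's ratio, which chance gives in about 1 of 20. These were Foxo1 in liver X5L5001 at 5 months (109.3), Fst in muscle X5S5001 at 5 months (12.7), Fst in liver X18L16 at 20 months (16.8), Acvr2b in liver X5L5238 at 5 months (6.56) and Mef2c in adipose sample X18F40 at 20 months (35.1). The first 2 come from the same mouse.

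The age change differed between tissues, by the interaction test, for Fst between muscle and liver (log2 1.43, limma adjusted p = 0.0477) and for Foxo1 between muscle and adipose tissue (log2 -1.26, adjusted p = 0.0337). The Fst call was lost in 13 of 15 alternatives and that of Foxo1 in 5 of 15.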

How the results depend on the processing

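The count of genes called in muscle was 8, from 6 to 8 over 12 other settings and from 6 to 8 with a mouse left out. Foxo1, Foxo3, Trim63, Mstn and Mef2c were called in each of these fits. In liver the count of 1 became 2 with sample weights, with edgeR and in the fit of all 27 samples, 3 with DESeq2, and 0 to 2 with a mouse left out. In adipose tissue the count of 1 became 3 with sample weights and in the fit of 27 samples, 4 with DESeq2, 0 (limma, with 4 at an unadjusted p under 0.05) without the filter, and 0 to 1 with a mouse left out (2 to 4 unadjusted where 0). Interaction counts here are over all 10 genes and so hold Mstn, and Trim63 against liver, whose values there are at or near 0 and give no comparison. For the interaction with liver the count of 2 became 5 with mouse as a block, 4 without X5S5001, X5L5001 and X5F5001, a setting chosen after seeing the data, 0 with edgeR (5 unadjusted) and 0 in limma with a pseudocount of 0.1 (6 unadjusted), and 1 to 3 with a muscle sample left out. For adipose tissue the count of 2 became 4 without that mouse, 1 with edgeR and 1 with a pseudocount of 0.1, and 1 to 2 with a muscle sample left out. The counts of tissue differences were 9, 9, 7 to 8 and 8 throughout, and the block changed no other call.

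Signs turned where changes were small or did not pass. In muscle Acvr2b turned to 0.034 on rescaling without the 20 most abundant genes and ranged from -0.27 to 0.051 with a mouse left out. In liver Mef2c turned to -0.12 under quantile normalization and ranged from -0.061 to 0.22. In adipose tissue sample weights gave 0.16 for Trim63, -0.17 for Fst and -0.11 for Mef2c, edgeR gave -0.0096 and DESeq2 -0.023 for Fst, and with a mouse left out Foxo3 ranged from -0.46 to 0.013, Mef2c from -0.11 to 0.23 and Fst from -0.17 to 0.23. In the interaction with adipose tissue Trim63 was 0.45 with a pseudocount of 0.1, 0.21 under quantile normalization and 1.08 in edgeR, from -0.26 to 0.083 with a muscle left out, Fbxo30 was 0.064 under quantile normalization and Klf15 -0.12 without that mouse. Among level differences Klf15 against liver at 5 months was 0.010 under quantile normalization and -0.21 to 0.022 with a muscle left out, and Fst at 20 months was -0.22 against liver in edgeR and 0.29 against adipose tissue under quantile normalization. The causes were not tested.

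Over all genes the muscle count of 2451 was 1507 without the filter and 1158 to 3796 with a mouse left out, lowest without X18S60 and highest without X5S5238. In liver 2508 became 4454 with sample weights and 959 to 3557 with a mouse left out. In adipose tissue 2674 became 8456 with sample weights, 5270 in the fit of 27 samples, 4348 with DESeq2, 1525 without the filter and 397 to 3748 with a mouse left out. Rescaling without the 20 most abundant genes shifted the liver median by 0.16 on the log2 scale and its split from 1269 higher and 1239 lower to 2129 and 472.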
